A study of Mus musculus with 9 samples.

Results

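The CHD7 peaks described here are those in gene deserts, the parts of the mouse genome that lie far from any protein-coding gene. They were taken from the deposited list of CHD7 CUT&RUN peaks by position alone: the midpoint of the peak had to lie outside every protein-coding gene body of the GENCODE M21 annotation, and more than 100 kb from the nearest transcription start site (TSS), where every annotated transcript of the protein-coding genes counted. Of the 3761 peaks in the list, 369 met the rule, which is 9.81% (Wilson 95% confidence interval 8.90 to 10.8).

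The cells were cardiac precursor (CP) cells, made from wild-type mouse embryonic stem cells and collected at day 5 of their differentiation into cardiomyocytes. The genotype (WT), the cells and the day were the same in every group, and only the antibody differed. CUT&RUN uses an antibody to bring a nuclease to a chromatin protein, and the DNA it cuts free is sequenced. There were 9 libraries: 3 biological replicates with an antibody against CHD7, 3 with the control antibody IgG and 3 input libraries without antibody. The peak list is one list for the 3 CHD7 replicates together and holds positions only, so neither the depth of a library, nor the height of a peak, nor the spread between replicates can be given. The identity of the cells cannot be checked from positions either, and the intervals below cover counting error over peaks only. Peaks are not replicates of a condition, and neighbouring peaks may share one regulatory region. In all, 7 features and 20 motifs were compared in each of 4 comparisons, and each adjusted P below is over the features or over the motifs of its comparison.

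CHD7 is a chromatin remodeller that uses ATP to move nucleosomes, and it is best known from binding at distal enhancers. Gene deserts are long stretches with few or no protein-coding genes. Some of them flank developmental regulators and carry long-range enhancers that reach a promoter across a great distance, whereas others hold little conserved sequence. GATA factors, the LIM homeodomain factor ISL1 and other homeodomain proteins are DNA-binding regulators of cardiac precursors, and CHD7 itself is not known to read a specific sequence.

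The sequence around the midpoint of 5 of the peaks is shown because these windows were among the 10 with the most motif matches of the peaks named below, and 4 of the 5 lie beside a gene of the lists of regulators and signalling genes. Each is 300 bp of GRCm38 (mm10), plus strand, in lower case. Capitals mark matches on either strand to the GATA consensus AGATAA, to CATAAA, the core of caudal-type homeodomain sites, to the homeodomain core TAATTA and to CTAATG, a core of LIM homeodomain sites. The windows are chr6:148616063-148616362 between Tmtc1 and Ipo8 (peak1399), chr14:46639469-46639768 between Bmp4 and Cdkn3 (peak2965), chr12:9394064-9394363 between Ttc32 and Osr1 (peak2558), chr13:72924773-72925072 between Irx2 and Irx4 (peak2837) and chr13:119301284-119301583 between Fgf10 and Nnt (peak2901). Peak numbers give the place of the peak in the deposited list.
peak1399: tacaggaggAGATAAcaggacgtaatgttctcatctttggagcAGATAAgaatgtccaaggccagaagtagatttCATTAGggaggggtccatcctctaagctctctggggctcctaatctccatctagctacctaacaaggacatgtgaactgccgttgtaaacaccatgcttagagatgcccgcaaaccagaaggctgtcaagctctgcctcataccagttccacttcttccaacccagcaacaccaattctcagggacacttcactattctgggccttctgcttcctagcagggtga
peak2965: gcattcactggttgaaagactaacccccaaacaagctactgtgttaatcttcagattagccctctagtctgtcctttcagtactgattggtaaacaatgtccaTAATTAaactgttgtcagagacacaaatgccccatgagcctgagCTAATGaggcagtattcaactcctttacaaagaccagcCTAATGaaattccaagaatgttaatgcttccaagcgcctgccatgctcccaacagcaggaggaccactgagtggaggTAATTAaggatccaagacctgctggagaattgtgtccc
peak2558: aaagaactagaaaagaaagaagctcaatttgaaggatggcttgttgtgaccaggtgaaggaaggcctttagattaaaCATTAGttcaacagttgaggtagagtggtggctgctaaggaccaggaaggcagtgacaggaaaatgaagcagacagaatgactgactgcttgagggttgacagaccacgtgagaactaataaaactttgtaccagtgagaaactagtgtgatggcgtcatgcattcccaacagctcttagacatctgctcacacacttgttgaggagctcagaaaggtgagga
peak2837: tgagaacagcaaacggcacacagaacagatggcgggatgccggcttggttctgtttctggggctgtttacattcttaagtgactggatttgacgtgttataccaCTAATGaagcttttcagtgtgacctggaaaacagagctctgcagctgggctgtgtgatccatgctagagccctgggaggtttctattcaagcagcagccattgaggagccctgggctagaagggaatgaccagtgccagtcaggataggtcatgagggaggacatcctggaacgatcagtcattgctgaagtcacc
peak2901: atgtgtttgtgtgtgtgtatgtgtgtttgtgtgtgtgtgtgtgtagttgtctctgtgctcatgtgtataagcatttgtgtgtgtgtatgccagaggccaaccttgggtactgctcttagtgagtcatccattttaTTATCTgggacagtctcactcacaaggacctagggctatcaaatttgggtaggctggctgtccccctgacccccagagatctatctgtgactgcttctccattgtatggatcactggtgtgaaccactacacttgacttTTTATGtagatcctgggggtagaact

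The window of peak1399 held 2 GATA matches and 1 LIM homeodomain match, with a forkhead, an NKX2 and a MEIS match in lower case. That of peak2965 held 2 TAATTA and 2 CTAATG matches and no GATA match. The windows of peak2558 and peak2837 each had 1 CTAATG match, and the window of peak2901 had 1 AGATAA and 1 CATAAA match. A match is a string of letters and no evidence that a factor was bound.

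CHD7 peaks were sparser in gene deserts than in any other class of the genome, counted base by base on the sequenced parts of the chromosomes. The territory that met the rule covered 834 Mb, or 31.5% of the sequenced 2648 Mb, and its 369 peaks gave 0.442 peaks per Mb (exact Poisson 95% interval 0.398 to 0.490), against 1.42 per Mb for the whole list. Outside genes, the density was 1.28 per Mb at 50 to 100 kb from a TSS, 1.58 at 10 to 50 kb, 1.95 at 1 to 10 kb and 11.2 within 1 kb. Inside protein-coding genes the bases at over 100 kb from a TSS held 119 peaks, or 0.845 per Mb (0.70 to 1.01), an interval that lies above that of the gene deserts. These densities follow from the positions that the rule uses and are given without a test.

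Within the deserts the density was lower the farther the territory lay from a TSS. On the autosomes, the density was 0.953 peaks per Mb (0.786 to 1.15) at 100 to 150 kb from a TSS, 0.763 (0.593 to 0.968) at 150 to 200 kb and 0.742 (0.601 to 0.906) at 200 to 300 kb, and these neighbouring intervals overlapped. It was then 0.374 (0.284 to 0.484) at 300 to 500 kb, 0.156 (0.100 to 0.233) at 500 to 1000 kb and 0.0987 (0.0397 to 0.203) beyond 1000 kb, where only 7 peaks lay in 70.9 Mb. The median distance of the 369 peaks was 200612 bp, with 114 of them between 100 and 150 kb.

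**Figure D1:**
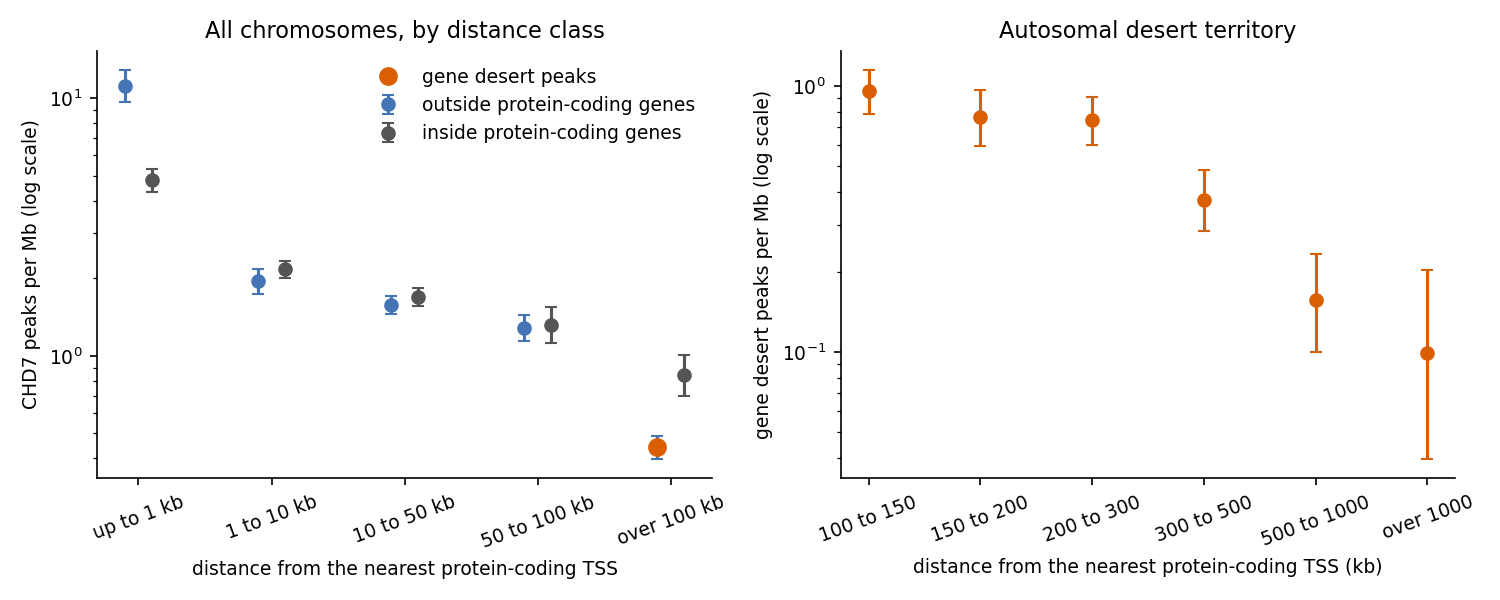
CHD7 peaks per Mb by distance from the nearest protein-coding TSS. Left, all chromosomes, outside (blue) and inside (grey) protein-coding genes, with the gene desert peaks in orange at 0.442 per Mb, the lowest point; right, gene desert territory of the autosomes split by distance, from 0.953 down to 0.0987 per Mb. Points are densities, bars exact Poisson 95% intervals, and both vertical axes are logarithmic.

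The autosomes held 366 of the 369 peaks, from 0.281 per Mb of desert territory on chromosome 3 to 0.868 on chromosome 19. Chromosome 13 had 31 peaks in 37.7 Mb (0.822 per Mb, 0.558 to 1.17) and chromosome 1 had the most, 33. The X chromosome held 2 in 57.9 Mb (0.0345 per Mb, 0.00418 to 0.125). The whole list had only 14 peaks on X, so the gap was not particular to deserts, and its cause was not tested. Of the 3 peaks on the sex chromosomes, peak3747 beside Gria3 on X was 98.4% soft-masked repeat and peak3761 on Y was 100% repeat. These 3 peaks were named after their values were seen.

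The 10 peaks farthest from a TSS lay between adhesion, neuronal and other genes. The farthest, peak3056 (chr14:91335035-91335466), was 2550498 bp from the nearest TSS, in the desert of 4542013 bp between the protocadherin genes Pcdh20 and Pcdh9, and peak3057 (chr14:91793030-91793445) in the same desert was 2092511 bp away. They were 432 and 416 bp wide, and peak3056 held no repeat sequence. Next came peak33 beside Tmeff2 at 1955056 bp and peak2094 between Nmbr and Cited2, which encodes a transcriptional coregulator with roles in heart development, at 1478973 bp. Of these 10 peaks, 9 were narrower than the median of the whole list, 703 bp, and 4 were over 50% repeat: peak2094 (80.2%), peak400 near Gm10800 (80.4%), peak722 near Adgrl2 (68.8%) and peak759 near 1700009N14Rik (85.7%). Among all 369, 35 were over 50% repeat.

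At the edge of the rule, the nearest peaks inside it were peak2240 upstream of Hmga2 at 100538 bp, peak1201 upstream of Dync1i1 at 100797 bp and peak2750 upstream of Vps41 at 101171 bp, with widths of 594, 764 and 438 bp. Just outside it were peak2913 at 99759 bp, peak3283 at 99522 bp and peak3081 at 99456 bp, with widths of 1585, 684 and 400 bp.

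Gene desert peaks were narrower than the other peaks of the list. Their median width was 617 bp (range 249 to 2320) against 713.5 bp for the other 3392. Of the 369, 151 were wider than 703 bp (40.9%, 36.0 to 46.0), against 50.9% of the others (49.2 to 52.6), an odds ratio of 0.67 (0.53 to 0.84; 2-sided Fisher's exact test, adjusted P = 0.000407). Against the nearest classes the difference did not pass with the 100 kb limit. Among peaks outside genes at 50 to 100 kb the share was 48.2% (n = 282; odds ratio 0.74, 0.54 to 1.03; adjusted P = 0.157), and among peaks inside genes at over 50 kb it was 45.3% (n = 274; odds ratio 0.84, 0.60 to 1.16; adjusted P = 0.516). With a limit of 200 kb, the comparison set outside genes ran from 50 to 200 kb and so held gene desert peaks at 100 to 200 kb. The difference from that set was called (odds ratio 0.63, exact test, adjusted P = 0.0311). With 1 peak kept per gap between genes, the odds ratio against all other peaks was 0.84 (Fisher's exact test, adjusted P = 0.249). The widest gene desert peak and the widest other peak of each gap were kept, and peaks inside genes were all kept. Because width chose the peaks, the loss cannot show whether the call depends on counting every peak of a gap. The median width was 649.5 bp at 100 to 150 kb from a TSS, 501 bp at 500 to 1000 kb and 432 bp for the 7 peaks beyond 1000 kb.

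The widest peaks lay beside genes for transcription factors and signalling proteins as well as others. Peak698 (chr3:130883755-130886074) was 2320 bp wide, in the desert between Rpl34 and Lef1, the gene of a nuclear effector of Wnt signalling, and its midpoint lay 63 bp from the start of a noncoding transcript, within the lincRNA 2010110G14Rik. Peak2603 between Nrcam and Stxbp6 was 2093 bp wide. Peak2513 (chr11:113161522-113163584), 2063 bp, was 380329 bp downstream of Sox9, a regulator of cartilage and heart valve development, in the lincRNA 2610035D17Rik. Peak1559 beside Sox6 had 1948 bp, peak570 upstream of Tbl1xr1 had 1929 bp and peak1687 in the desert of Hand2 had 1902 bp. The other 4 were peak3558 upstream of Sema6a, peak2366 between Cox10 and F930015N05Rik, peak1681 between Cldn23 and Prag1 and peak1828 between Pard3 and Nrp1. None of the 10 exceeded 25.1% repeat, and each of the 10 held at least 1 GATA match over its length, 24 in all. The 10 farthest peaks, only 397 to 892 bp wide, held 8, and matches per bp were not compared.

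**Figure D2:**
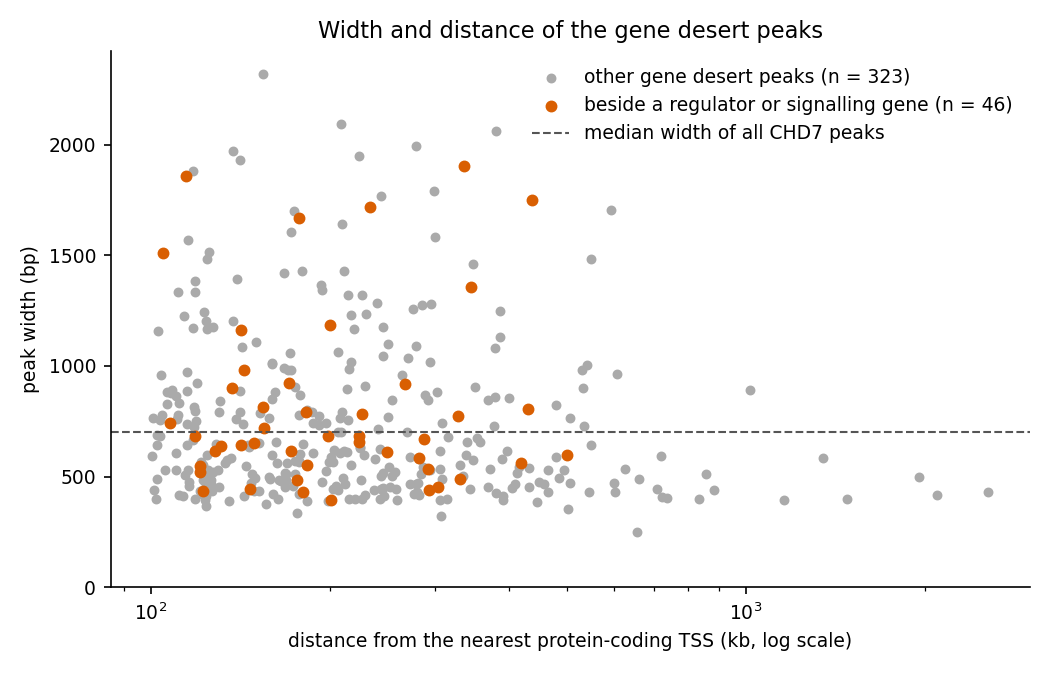
Width (bp) of each of the 369 gene desert peaks against its distance from the nearest protein-coding TSS (kb, logarithmic axis). Orange points are the 46 peaks beside a gene of the regulator or signalling list, grey points the other 323, and the dashed line is the median width of all peaks, 703 bp; the points beyond 1000 kb lie low, with a median of 432 bp.

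The DNA of the gene desert peaks had less G and C than that of the other peaks. The median GC content was 45.2% against 47.8%, and 123 of the 369 (33.3%, 28.7 to 38.3) were above the median of the list, against 51.8% of the others (odds ratio 0.47, 0.37 to 0.59; 2-sided Fisher's exact test, adjusted P = 5.66e-11). All other peaks include those at protein-coding TSSs, which the rule keeps out of the deserts, so this test is not independent of the rule. By Fisher's exact test, the share was 41.8% at 50 to 100 kb outside genes (odds ratio 0.70, 0.50 to 0.97; adjusted P = 0.0954) and 30.3% inside genes at over 50 kb (odds ratio 1.15, 0.81 to 1.64; adjusted P = 0.619). Against peaks at 50 to 100 kb the difference was called with 1 transcript per gene (exact test, adjusted P = 0.0290). With a limit of 200 kb, the difference was called against peaks at 50 to 200 kb, which include gene desert peaks (exact test, adjusted P = 0.0353). The peaks were nevertheless richer in GC than the deserts around them. Windows of 200 bp laid at every 2000 bp over the territory (416747 windows) had a mean GC content of 39.3%, whereas the 200 bp at the midpoint of the peaks had 45.4%, and the windows at 2000 bp to either side had 42.4% and 42.5%.

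Peaks with a high ratio of observed to expected CpG dinucleotides, a trait of promoter-like CpG islands, were nearly absent. The expected level is the one that base composition gives, and no length or GC limit of an island was applied. One gene desert peak, peak1245 (chr6:51178136-51178982) between Npvf and Nfe2l3, passed an observed to expected CpG ratio of 0.6, with 0.837. This is 0.271% of the peaks, against 7.93% of the other peaks (269 of 3392; odds ratio 0.032, 0.00079 to 0.18; 2-sided Fisher's exact test, adjusted P = 5.66e-11). At 50 to 100 kb outside genes it was 5 of 282 (1.77%; odds ratio 0.15, 0.0032 to 1.36; exact test, adjusted P = 0.158), and inside genes at over 50 kb it was 0 of 274 (Wilson upper limit 1.38%). The set of all other peaks includes those at protein-coding TSSs, which the rule keeps out of the deserts, so that test is not independent of the rule. Peak1245 was named after its value was seen.

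Repeats took up a smaller share of the peaks than of the deserts. On average 19.8% of the bases of a peak were soft-masked in the reference, against 43.8% in the 200-bp windows across the territory, and the share rose from 19.2% at the midpoint to 29.4% and 28.8% at 2000 bp to either side. Peaks with more than 10% repeat were 60.4% in the deserts and 61.2% elsewhere (odds ratio 0.97, 0.77 to 1.22; 2-sided Fisher's exact test, adjusted P = 0.779). Against the other peaks outside protein-coding genes, of which 66.7% passed this limit, the share was lower (odds ratio 0.76, 0.60 to 0.97; exact test, adjusted P = 0.0373). That call was lost with 1 peak per gap (exact test, adjusted P = 0.115) and with distance limits of 50 kb (0.0809) and 200 kb (0.370). Reads from repeats can be lost in alignment, and the part of this in these shares was not tested.

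**Figure D3:**
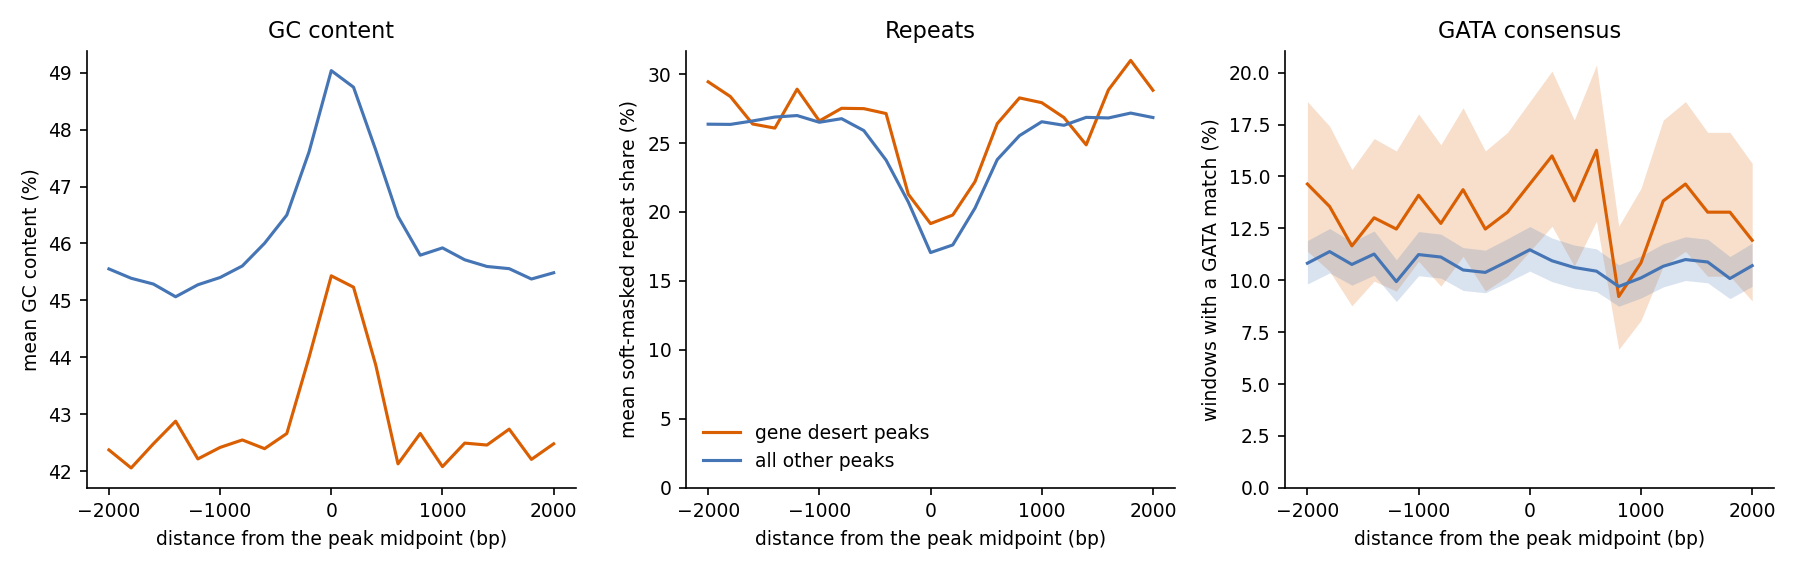
Windows of 200 bp at distances of up to 2000 bp from the peak midpoint, for gene desert peaks (orange, n = 369) and all other peaks (blue, n = 3392). Mean GC content (%) rises to 45.4% and the mean soft-masked share (%) drops to 19.2% at the midpoint of the gene desert peaks, while the share of windows with AGATAA (%, shading Wilson 95% intervals) shows no such centre.

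The share of midpoint windows with the GATA consensus, 54 of 369 (14.6%, 11.4 to 18.6), was close to the share in the flanks: 14.6% at 2000 bp on one side and 11.9% on the other, with overlapping intervals. Among the other peaks it was 11.5% (odds ratio 1.32, 0.95 to 1.81; 2-sided Fisher's exact test, adjusted P = 0.213), among all peaks 11.8%, and in windows over the whole territory 15.0%, or 10.9% once those windows were weighted to the GC content of the peaks. In the inner 200 bp, GATA matches were no more frequent in gene desert peaks than in their unweighted surroundings. The GC-weighted share, 10.9%, lay below the interval of the peaks, and this difference was not tested. Against the other peaks outside protein-coding genes (9.99%) the odds ratio was 1.54 (1.08 to 2.18; exact test, adjusted P = 0.0971).

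Of the 20 consensus motifs, 2 passed the test against all other peaks. CATAAA was in 53 of the 369 windows (14.4%, 11.2 to 18.3) against 8.58% of the others (odds ratio 1.79, 1.28 to 2.46; 2-sided Fisher's exact test, adjusted P = 0.00567). The GC box GGGCGG, a site of SP and KLF factors in many promoters, was in 12 (3.25%, 1.87 to 5.60) against 9.26% (odds ratio 0.33, 0.17 to 0.59; exact test, adjusted P = 0.000462). The CATAAA call was also lost over the whole peak (odds ratio 1.29; exact test, adjusted P = 0.171), in a 100 bp window (0.283), with 1 peak per gap (0.100) and among wider peaks (0.548). Neither motif was past the threshold when Fisher's exact test was replaced by a logistic model with the GC content of the window as a covariate, where the odds ratios were 1.41 (adjusted P = 0.719) and 0.85 (adjusted P = 0.894). CATAAA was in 17.8% of the windows over the territory, or 11.7% at the GC content of the peaks, and in 16.0% and 18.2% of the windows at 2000 bp to either side. GGGCGG was in 0.990% of the territory, or 2.26% at the GC content of the peaks, and in 8.67% of all peaks. The other peaks include those at protein-coding TSSs, which the rule keeps out of the deserts, so the GC box test is not independent of the rule. Against the other peaks outside protein-coding genes, which also hold such peaks, the same 2 motifs passed. Their odds ratios were 1.91 for CATAAA (exact test, adjusted P = 0.00406) and 0.29 for GGGCGG (exact test, adjusted P = 6.02e-05).

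The homeodomain core TAATTA was in 7.32% against 4.25% of the other peaks (odds ratio 1.78, 1.12 to 2.75; 2-sided Fisher's exact test, adjusted P = 0.0779). The forkhead core TGTTTAC was in 4.88% against 2.89% (odds ratio 1.72, 0.97 to 2.91; exact test, adjusted P = 0.213), and in 2.60% of the GC-weighted territory. CTAATG was in 10.3% of the midpoint windows, against 7.74% of all peaks and 7.46% of the GC-weighted territory. No gene desert window held the CTCF motif (0 of 369, Wilson upper limit 1.03%), against 0.737% of the others (exact test, adjusted P = 0.333). The motif was likewise in 0 of 282 windows at 50 to 100 kb outside genes and in 0 of 274 inside genes at over 50 kb. Against peaks at 50 to 100 kb outside genes, and against peaks inside genes at over 50 kb, 0 of the 20 motifs passed Fisher's exact test after adjustment. At an unadjusted P below 0.05, 1 motif differed in the first of these comparisons by the exact test, TAATTA, which was higher in the deserts (P = 0.0135). In the second there were 2 by the exact test, CTAATG, higher in the deserts (P = 0.0298), and the SOX core ACAATG, lower (P = 0.0251).

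**Figure D4:**
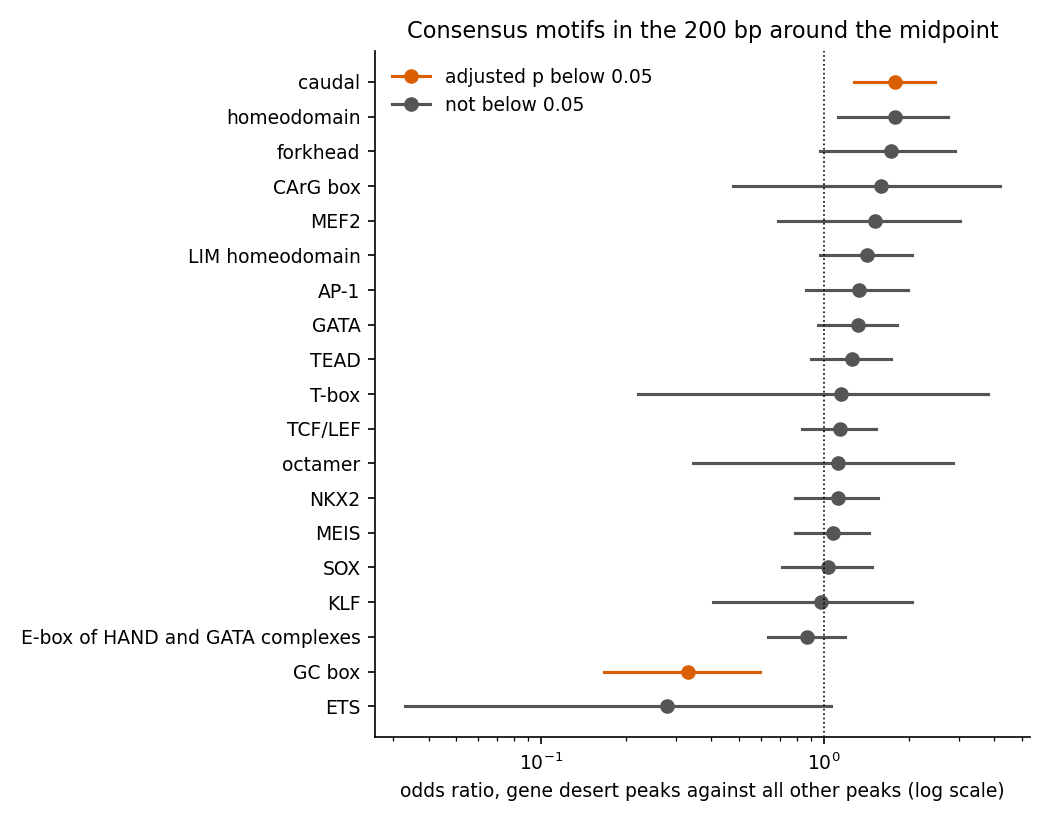
Odds ratios (logarithmic axis) of 19 consensus motifs in the 200 bp around the midpoint, gene desert peaks against all other peaks, with 95% intervals; CTCF, with no match in the gene desert peaks, is left out. Orange marks an adjusted P below 0.05, reached by CATAAA (caudal) at 1.79 and by the GC box at 0.33.

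Counted over the whole peak, 151 of the 369 (40.9%) had at least 1 GATA match: 93 had 1, 34 had 2, 14 had 3, 8 had 4 and 2 had 5. Their median width was 738 bp, against 568 bp for the 218 without a match, and matches per bp were not compared. Of the 245 matches, 32 lay in soft-masked sequence. The 2 peaks with 5 matches were peak1399 (chr6:148615708-148616718) between Tmtc1 and Ipo8, shown above, and peak1687 in the desert of Hand2. Peak256 between Camk1g and Plxna2, peak739 between Triqk and Runx1t1 and peak1681 between Cldn23 and Prag1 had 4 each. Peak2895 (chr13:116508933-116510118), 199836 bp upstream of Isl1, the LIM homeodomain gene that marks the second heart field, also had 4 matches in 1186 bp and is named after its value was seen.

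Some of the peaks lay in noncoding genes. The midpoint of 65 of the 369 (17.6%, 14.1 to 21.8) was inside an annotated noncoding gene or pseudogene, among them lincRNA genes in 54 cases, against 9.35% of all other peaks (odds ratio 2.07, 1.52 to 2.79; 2-sided Fisher's exact test, adjusted P = 7.62e-06). All other peaks include those inside protein-coding genes, where the annotation of noncoding genes differs. The rule keeps such peaks out, so this test is not independent of the rule. Among peaks inside genes at over 50 kb the share was 5.47% (15 of 274). Against the other peaks outside protein-coding genes (14.1%, n = 1391) the odds ratio was 1.30 (0.94 to 1.79; exact test, adjusted P = 0.0992). At 50 to 100 kb it was 14.9% (odds ratio 1.22, 0.78 to 1.92; exact test, adjusted P = 0.459). Of the windows over the territory, 10.4% lay in such genes. Only 16 peaks (4.34%, 2.69 to 6.93) were within 1 kb of a noncoding transcript start, against 5.28% of the other peaks (odds ratio 0.81, 0.45 to 1.38; exact test, adjusted P = 0.625) and 2.06% of the windows over the territory. The share was lower than among the other peaks outside protein-coding genes (7.48%; odds ratio 0.56, 0.31 to 0.97; exact test, adjusted P = 0.0420) and higher than among peaks inside genes at over 50 kb (0.730%, 2 of 274; odds ratio 6.15, 1.43 to 55.6; exact test, adjusted P = 0.0225). The first of these calls was lost with the 200 kb limit (exact test, adjusted P = 0.235) and the second with 1 peak per gap (0.0507). The first set includes peaks at protein-coding TSSs, and the second lies inside genes, where the annotation of noncoding genes differs. Neither call is therefore independent of the rule. At 50 to 100 kb outside genes the share was 4.61% (13 of 282; odds ratio 0.94, 0.41 to 2.16), which was not called.

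Gene desert peaks mostly stood alone. Another peak lay within 50 kb of 53 of the 369 (14.4%, 11.2 to 18.3), against 25.5% of the other peaks, 24.8% of those at 50 to 100 kb outside genes and 22.3% of those inside genes at over 50 kb. The rule keeps the peaks around every TSS, where the list is densest, out of reach of a desert peak, so these shares are a description. For 46 of the 53 the neighbour was itself a gene desert peak, and 15 peaks had a neighbour within 10 kb. The closest pair was peak3332 and peak3333 upstream of Robo2, with midpoints 2130 bp apart. The nearest TSS had the peak on its upstream side in 52.3% of cases (47.2 to 57.3), and 54.2% of the windows over the territory lay upstream.

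The annotation held 1898 gene deserts, counted as gaps between neighbouring protein-coding gene bodies with any territory that met the rule. CHD7 peaks in the same gaps at up to 100 kb from a TSS are left out of these counts and of the shares of deserts below. Of the 1898 deserts, 291 (15.3%) had at least 1 gene desert peak. Of these 291, 228 had 1 such peak, 54 had 2 and 9 had 3 or more. The share was higher in deserts with more territory: 2.88% of deserts with up to 50 kb of territory had one, 20.3% of those with 200 to 500 kb and 26.7% (21.5 to 32.7) of those with over 1000 kb. Per Mb, however, the longest deserts held the fewest, 0.205 (0.164 to 0.253), against 1.59 (1.05 to 2.31) in those with 50 to 100 kb. The desert with the most territory and no peak, 4467775 bp, lay between the teneurin gene Tenm3 and Aga.

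The desert between Uaca and Tle3, which encodes a corepressor of the Groucho family, had 6 peaks in 306220 bp of territory. They were 420 to 1607 bp wide, the widest being peak1923 (chr9:61199936-61201542), 171627 bp upstream of Tle3, and peak1921 held 4 GATA matches. The desert between Fam49a and Mycn, a MYC family transcription factor gene, had 5 in 459650 bp, 453 to 961 bp wide, with peak2563 (chr12:12676254-12677214) the widest. Its peak2565 lay 343 bp from the start of a noncoding transcript, in the lincRNA Platr19, with a GC content of 57.6%, the highest of the 369. Peak1921 and peak2565 were named after their values were seen.

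The desert between Bmp4, which encodes a bone morphogenetic protein ligand of cardiac induction and outflow tract development, and Cdkn3 had 4 gene desert peaks in 169871 bp of territory. Peak2962 (555 bp), peak2963 (794 bp) and peak2964 (chr14:46582438-46584105, 1668 bp) lay in a row within the lincRNA Rubie, 4950 and 4809 bp from midpoint to midpoint. Peak2965 (521 bp), shown above, was nearer to Cdkn3, at 120922 bp from its TSS, and its neighbour within 50 kb was 22444 bp away. The first 3 held 1, 1 and 2 GATA matches and peak2965 none.

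Deserts that border a cardiac and mesoderm regulator or a signalling gene of the lists had shares and densities above those of all deserts, which were 15.3% and 0.442 per Mb. Of the 53 deserts that border 1 of 42 cardiac and mesoderm regulators, 17 had a peak (32.1%, 21.1 to 45.5), with 0.936 peaks per Mb (0.593 to 1.40). Of the 57 that border 1 of 47 signalling genes, 17 had a peak (29.8%, 19.5 to 42.7), with 0.948 per Mb (0.601 to 1.42). Deserts beside transcription factor families such as SOX, FOX and POU had one in 22.7% of 66 (14.3 to 34.2), at 0.540 per Mb (0.320 to 0.853), and both intervals include the values of all deserts. Beside adhesion and neuronal surface genes it was 20.6% of 97 (13.8 to 29.7), but these deserts were long, with a median of 841 kb of territory, and their density was 0.207 per Mb (0.135 to 0.303). Chemoreceptor genes bordered 30 deserts, of which 2 had a peak. These lists were described, not tested. They were drawn up with earlier results of these data known, and they hold Isl1, Hand2 and Osr1, whose desert peaks the paper itself lists. The higher shares and densities therefore cannot show that CHD7 favours such deserts.

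Among the 965 deserts with over 200 kb of territory, 22.8% had a peak. It was 15 of 35 beside the cardiac and mesoderm regulators (42.9%), 11 of 35 beside signalling genes (31.4%), 13 of 36 beside the transcription factor families (36.1%) and 19 of 77 beside adhesion genes (24.7%). The shares of the lists rest on few deserts and are given without intervals or a test. As above, the regulator and signalling lists were drawn up with earlier results of these data known. The territory of deserts also differed between lists, with medians of 340 kb for the regulators, 252 kb for signalling genes and 210 kb for all deserts.

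**Figure D5:**
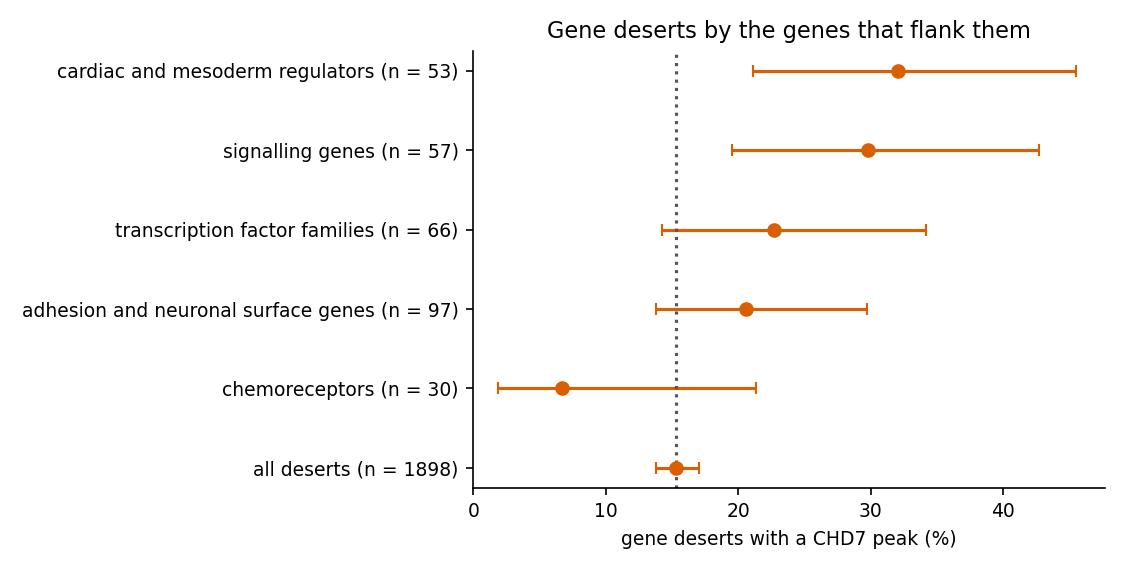
Share of gene deserts (%) with at least 1 gene desert peak of CHD7, by the protein-coding genes that border them, with Wilson 95% intervals and the number of deserts. The lists were drawn up with earlier results of these data known. The dotted line marks all deserts, 15.3%; the points for regulators (32.1%) and signalling genes (29.8%) lie to its right, and chemoreceptors (6.67%) to its left.

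In all, 46 of the 369 peaks lay in a desert bordered by a regulator or signalling gene of the lists, and for 25 the nearest TSS was of such a gene. They had a median width of 676.5 bp against 606 bp for the other 323, and 41.3% had a GATA match over the peak against 40.9%. A neighbour within 50 kb was present for 12 of the 46 (26.1%) and for 12.7% of the others. These 12 were the peaks beside Bmp4, Hand2, Robo2, Vegfa and Tbx3, and both peaks of a close pair were counted. Of the 42 regulators beside a desert 15 had a peak there, and of the 47 signalling genes 17.

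Among the transcription factors, Sall1, a zinc finger gene, had 3 peaks at 122084 to 499725 bp upstream of it: peak1739 (437 bp), peak1740 (804 bp) and peak1741 (597 bp). The Iroquois homeobox genes share a series of deserts. Peak2833 (429 bp, 49.4% repeat) lay before Irx1, peak2834 (chr13:72133882-72134804, 923 bp) and peak2835 (640 bp) between Irx1 and Irx2 at 170620 and 131071 bp from the nearer gene, and peak2837 (537 bp), shown above, between Irx2 and Irx4. Osr1, a zinc finger gene of the early mesoderm and the posterior second heart field, had peak2557 (685 bp) and peak2558 (484 bp, in the lincRNA Gm46323) on one side and peak2559 (615 bp, in the lincRNA Gm48791) on the other.

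Hand2, a basic helix-loop-helix gene needed for the right ventricle and outflow tract, had peak1687 (chr8:56923315-56925216, 1902 bp, 5 GATA matches) and peak1688 (1355 bp, no GATA match), 8924 bp apart in the desert of 727043 bp that it shares with Fbxo8. Both lay nearer to Fbxo8, and their midpoints were 396718 and 387794 bp from the near end of Hand2. Tbx3, a T-box gene of the cardiac conduction system, had peak1100 (773 bp) and peak1101 (439 bp) at 328084 and 293202 bp upstream. Twist2 had peak105 (685 bp), and Myocd, whose product is a coactivator of SRF in cardiac and smooth muscle, had peak2368 (902 bp) at 136949 bp upstream.

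Among the ligands, Bmp2 had peak464 (814 bp) at 154294 bp upstream and Bmp7 had peak545 (549 bp, GC content 56.6%) in the desert it shares with Tfap2c. Fgf10, a fibroblast growth factor of the second heart field, had peak2901 (chr13:119301063-119301805, 743 bp) at the far end of its desert, 509319 bp from the gene and 107518 bp from the TSS of Nnt. Vegfa, the vascular endothelial growth factor gene, had peak3436 (983 bp) and peak3437 (615 bp), 15991 bp apart and at 128086 bp from its TSS for the nearer. Inhba, which encodes the activin beta A subunit, had peak2745 (1716 bp, 3 GATA matches) in the desert it shares with Gli3 and peak2747 (644 bp) on the other side. Slit3, which encodes a ligand of ROBO receptors, had peak2301 (1162 bp).

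Among the receptors, Robo2 had the close pair peak3332 (445 bp) and peak3333 (653 bp) at 146738 and 148868 bp upstream, with 3 and 1 GATA matches. Nrp1, a coreceptor of semaphorins and VEGF, had peak1828 (1860 bp, 4 GATA matches) and peak1829 (783 bp), both nearer to Pard3. Fgfr1 had peak1665 (chr8:25408151-25409659, 1509 bp) at 104749 bp upstream, and Fgfr2 had peak1586 (721 bp) between it and Wdr11. The peaks lie beside these genes on the chromosome, and which gene, if any, each of them acts on was not tested.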

How the data were processed

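CUT&RUN was performed with anti-CHD7, IgG or no antibody (3 libraries each, day 5). The authors trimmed reads with fastp 0.20.1, aligned them to mm10 with BWA 0.7.17.4, removed duplicates by molecular identifiers, called peaks in each sample with MACS2 2.1.2 against IgG, and kept those found in more than 1 replicate (versions from the submitters' processing notes). The deposited values are the positions, in bp, of 1 pooled list. The calling threshold was not found in the sources used here.

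Starts were read as counted from 0. Positions were joined to GENCODE M21 and to the GRCm38.p6 reference of RefSeq, the assembly of mm10. Differences in shares were tested with the 2-sided exact test of Fisher, with conditional odds ratios, Wilson 95% intervals and Benjamini-Hochberg adjustment, which treat peaks as independent. Motifs were counted on both strands of the 200 bp at the midpoint, and overlapping matches of different motifs were all counted. Functions were tested on simulated data. The peaks named are the 10 farthest and widest, those at the 100 kb limit, the widest of the 3 fullest deserts, the 5 with most GATA matches and those beside up to 20 listed genes, and exceptions are marked; the peaks beside 1 of these genes are not reported here. The members, lists and motifs were chosen with earlier results of these data known. Python 3.11.15, scipy 1.17.1 and statsmodels 0.14.6 were used.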

Additional observations from a re-analysis of the deposited data

How the results depend on the processing

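With a distance limit of 50 kb in place of 100 kb the rule gave 651 peaks, with 200 kb 186, with the starts of every annotated gene, noncoding ones included, 55, and with peaks wider than the median only 151. With those 55 peaks the odds ratios against all other peaks were 0.72 for width and 0 for a high CpG ratio, both no longer called. The odds ratio was 0.51 for noncoding genes, which that setting removes by construction, and 0 motifs passed. Against the other peaks outside genes the noncoding odds ratio was 0.32, and against those at 50 to 100 kb width gave 1.13 and GC content 1.02. Among the wider peaks, the width difference was not called (odds ratio 0.74), 1 motif passed, and noncoding genes gave 0.97 against peaks at 50 to 100 kb. With 1 peak per gap, for which the widest was kept, width gave 0.84 against all other peaks, not called, and 1.09 against peaks inside genes, and 1 motif passed. Since width chose the peaks, these width values cannot show an effect of repeated counting. The odds ratio of having a neighbour, 0.49 within 50 kb, was 0.68 within 10 kb and not called.

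Repeat content against all other peaks, not called in any setting, changed direction with limits of 50 kb (1.08) and 200 kb (1.06), with 1 transcript per gene (1.06), with 1 peak per gap (1.03) and with a repeat limit of 50% (1.47), which gave 1.10 against the other peaks outside genes. GC content against peaks inside genes gave 0.97 with the 200 kb limit and 0.87 with 1 transcript per gene, and forkhead gave 0.999 in a motif window of 100 bp. That window left 1 motif past the threshold, the 400 bp window gave 6, among them AGATAA (odds ratio 1.47), and the model with GC content 0. GC content against all other peaks was called lower in each of 10 alternatives, with odds ratios from 0.31 to 0.53. In each of them the other peaks include those at protein-coding TSSs, so these calls are not independent of the rule. Of the other 15 motifs, 27 of 194 odds ratios under alternatives lay on the other side of 1. No cause of these changes was tested beyond those named.

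No paired analysis was possible because the deposited list is 1 list for the 3 CHD7 libraries with no value per library, and leaving out a replicate was not possible for the same reason. The lack of heights and depths limits each result to presence or absence of a called peak.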
